A study of Mus musculus with 8 samples.

Results

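The proteasome subunits examined here are the genes Psmb7, Psma2, Psmd7, Psmb8, Psmb9 and Psmb10, which are 6 of the 770 genes read in mouse lymph nodes. They were chosen by name from a list of 7 subunits, and the seventh, Psmb5, is not analysed here. All 6 passed the filter on low values, which asked for a normalized count signal of at least 20 in at least 4 libraries and kept 609 genes. The study compared nodes labelled tumor-bearing with nodes labelled tumor-free; per its description, the tumor is Eµ-myc lymphoma (a Myc-driven mouse B cell tumor) spread through the lymphatic vessels, but Myc in these libraries goes against the labels, as given further on. Each group has 4 libraries of total RNA read on a NanoString panel, in which barcoded probes are counted molecule by molecule without amplification. Strain, age, sex and the number of animals are not given in the labels, nor is it said that the nodes of a group come from different animals, and the p-values hence reflect only how much these 8 libraries vary, which may be technical.

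The proteasome is the barrel-shaped protease that degrades ubiquitin-tagged proteins and produces most of the peptides shown on MHC class I. Its core is built of outer alpha rings, to which Psma2 belongs, and inner beta rings that carry the catalytic sites, and a regulatory particle with a lid, which contains Psmd7, sits on its ends. In lymphoid cells and after interferon gamma the catalytic beta subunits of newly made cores are exchanged for immune forms: Psmb8 takes the place of Psmb5, Psmb9 that of Psmb6, and Psmb10 that of Psmb7. The resulting immunoproteasome cuts proteins into peptides that fit MHC class I more often.

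The genes of 2 of the immune subunits lie side by side in the MHC region of chromosome 17, interleaved with the genes of the peptide transporter Tap1 and Tap2, and they are shown first because Psmb8 and Psmb9 had the most similar profiles of all pairs of subunits in these libraries. In the RefSeq annotation of build GRCm38.p6, Psmb9 occupies chr17:34182030-34187330 on the minus strand, Tap1 chr17:34187556-34197225, Psmb8 chr17:34198195-34201454 and Tap2 chr17:34204479-34216321. The annotated starts of Psmb9 and Tap1 are 226 bases apart and point away from each other, and Psmb8 begins 970 bases after Tap1 ends. Psmb10 lies apart from them at chr8:105935728-105938392, Psmb7 at chr2:38588046-38643952, Psma2 at chr13:14613242-14625673 and Psmd7 at chr8:107580380-107588482.

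The stretch between the starts of Tap1 and Psmb9 (chr17:34187331-34187555, 225 bases) is given on the Psmb9 strand, and the 250 bases before the starts of Psmb8 (chr17:34197945-34198194, plus strand) and Psmb10 (chr8:105938393-105938642, minus strand) on the strand of each gene, from RefSeq, build GRCm38.p6. Capitals mark matches to any of 3 motifs, which were searched on both strands of the full 300-base windows (250 bases before to 50 after the start), and no matches overlap.
Psmb9-Tap1: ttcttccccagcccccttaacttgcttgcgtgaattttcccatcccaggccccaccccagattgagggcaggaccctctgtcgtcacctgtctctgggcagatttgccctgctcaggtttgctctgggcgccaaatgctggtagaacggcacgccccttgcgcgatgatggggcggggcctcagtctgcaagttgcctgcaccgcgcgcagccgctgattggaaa
Psmb8: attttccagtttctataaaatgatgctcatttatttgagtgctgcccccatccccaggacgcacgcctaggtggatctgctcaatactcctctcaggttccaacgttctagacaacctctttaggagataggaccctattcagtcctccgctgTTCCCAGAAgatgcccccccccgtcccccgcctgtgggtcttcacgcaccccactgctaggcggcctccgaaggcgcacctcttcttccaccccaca
Psmb10: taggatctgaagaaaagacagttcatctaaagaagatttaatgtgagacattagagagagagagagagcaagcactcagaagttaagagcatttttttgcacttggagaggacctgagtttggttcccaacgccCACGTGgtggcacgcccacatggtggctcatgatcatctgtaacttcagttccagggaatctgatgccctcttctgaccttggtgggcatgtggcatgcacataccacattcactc
The motifs were the gamma interferon activated site TTCNNNGAA, the core of the interferon-stimulated response element, and the E-box CACGTG, which Myc can bind. The Psmb8 window held 1 match to TTCNNNGAA, and 8.30% of 32851 promoter windows of 300 bases hold one. The Psmb10 window held 1 match to CACGTG, found in 7.15% of those windows. The core of the interferon-stimulated response element, found in 3.44% of windows, was in none of the windows of Psmb8, Psmb9, Psmb10, Psma2 and Tap1, and the windows of Psmb9, Psma2 and Tap1 held no match to any of the 3 motifs. The windows of Psmb7 and Psmd7 were not searched. These matches describe letters and not binding.

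Each library held from 659771 to 819257 steps of its smallest unit of signal, taken over all 770 genes, and the subunits from 615 to 6149 steps, so that counting error alone is at most 4.03% of any subunit's value. Myc read 3147, 2996, 3281 and 3090.1 in the libraries labelled tumor-bearing 1 to 4, against 29389, 31449, 9249.5 and 33147 in those labelled tumor-free 1 to 4 (log2 difference -2.88, limma adjusted p = 0.00987). This goes against the labels for a Myc-driven tumor, so groups are named by their labels, and every direction given turns round if the labels are exchanged. The library labelled tumor-free 3 stands apart from the other 3 of its group in Myc, and the library labelled tumor-bearing 1 has the largest total signal, 1015683 against 645024 to 845056 in the other 7. Results are therefore also given without these 2 libraries, an alternative chosen after the data were seen. The median kept gene had a log2 difference of 0.36 in the deposited values, 0.22 with every library brought to one total, 0.080 after quantile normalization, -0.17 with every library brought to one median and 0.91 when scaled on the panel's reference genes, so a subunit's difference is read against that shift.

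The constitutive catalytic subunit Psmb7 and the lid subunit Psmd7 fell in the nodes labelled tumor-bearing, while the 3 immune subunits were not called in either direction. Of the 6 subunits, limma called 2 lower, where 10.7% of kept genes were lower, and 0 higher, where 27.6% of kept genes were higher. At an unadjusted p under 0.05 the counts were 3 lower, where 14.9% of kept genes were lower, and 0 higher, where 39.1% were higher. Groups were apart, with every library of one group below every library of the other, for the same 2 subunits, against 10.2% of kept genes apart and lower, and 21.7% apart and higher. The median log2 difference of the 6 was -0.22, beside 0.36 over all kept genes.

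**Figure D1:**
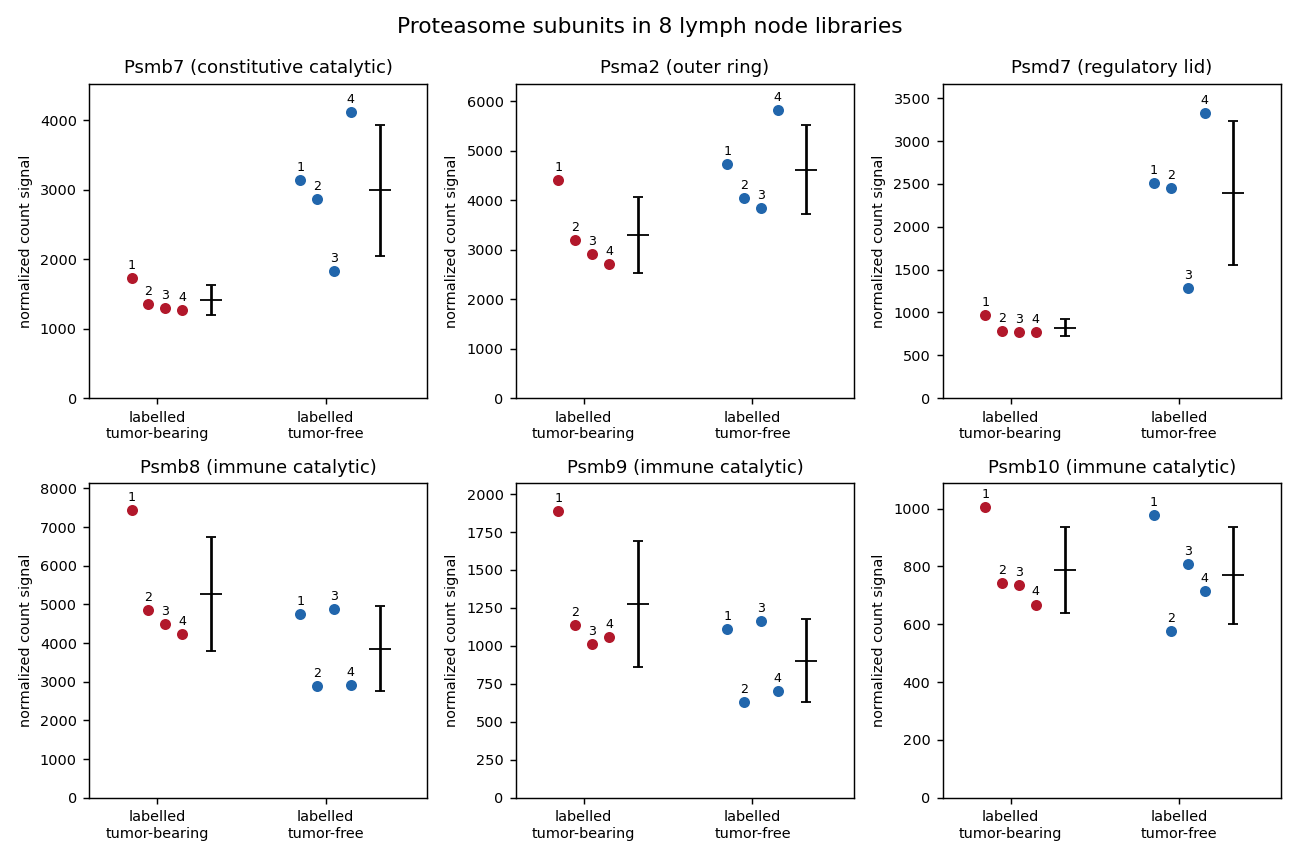
Normalized count signal of each subunit (vertical axis, from 0) in the 4 libraries labelled tumor-bearing (left, red) and the 4 labelled tumor-free (right, blue), numbered by replicate, with the mean and SD of each group in black. For Psmb7 and Psmd7 every library labelled tumor-bearing lies below every library labelled tumor-free, and for the other 4 subunits the groups overlap.

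Psmb7 carries the trypsin-like activity of the constitutive core. It read 1725, 1349, 1294 and 1272 in the libraries labelled tumor-bearing 1 to 4, and 3137, 2866, 1826 and 4123 in those labelled tumor-free 1 to 4. The groups were apart, but the highest library labelled tumor-bearing (replicate 1) and the lowest labelled tumor-free (replicate 3) were close to each other. The means were 1409.7 ± 212 and 2988 ± 945 in the nodes labelled tumor-bearing and tumor-free (SD, n = 4 each), giving a difference of -1.04 on the log2 scale (SE 0.25, 95% interval -1.60 to -0.47, limma adjusted p = 0.0239). Psmb7 was called lower under all 4 other scalings, with log2 differences from -1.58 to -0.49. Its call depended on which libraries entered the fit: the adjusted p was 0.0678, 0.0538 and 0.0569 without labelled tumor-bearing 2, 3 and 4, and 0.0536 and 0.0816 without labelled tumor-free 1 and 2. In these fits the log2 difference stayed between -1.04 and -0.99 and the limma unadjusted p between 0.0069 and 0.0081. Over the whole panel the same fits called from 0 to 20 genes lower. With labelled tumor-free 3 and labelled tumor-bearing 1 both left out, its difference was -1.35 (limma adjusted p = 0.000665).

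Psmd7, a lid subunit with no catalytic activity of its own, showed the largest difference of the 6. Its signal was 975, 781, 769 and 768 in the libraries labelled tumor-bearing, against 2511, 2452, 1285 and 3333 in those labelled tumor-free, each in the order of replicates 1 to 4. Replicates 2 to 4 labelled tumor-bearing lay close together, while the libraries labelled tumor-free were spread widely and replicate 3 was again their lowest. The means were 823 ± 101 and 2395 ± 842 in the nodes labelled tumor-bearing and tumor-free (SD, n = 4 each). The log2 difference was -1.47 (SE 0.28, 95% interval -2.09 to -0.85, limma adjusted p = 0.0173), which put Psmd7 above only 4.27% of kept genes. It was called lower under all 4 other scalings (-2.01 to -0.92). The adjusted p was 0.0577, 0.0538 and 0.0569 without labelled tumor-bearing 2, 3 and 4, and 0.0708 without labelled tumor-free 2. With labelled tumor-free 3 and labelled tumor-bearing 1 both left out, its difference was -1.82 (limma adjusted p = 0.000158).

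Psma2, an outer ring subunit shared by constitutive and immune cores, lay between these genes and the immune subunits. It read 4411, 3191, 2903 and 2699.9 in the libraries labelled tumor-bearing 1 to 4, and 4738, 4041, 3844 and 5831 in those labelled tumor-free 1 to 4. The groups overlapped only through labelled tumor-bearing 1, which lay above labelled tumor-free 2 and 3. The log2 difference of -0.49 (SE 0.22, 95% interval -0.97 to -0.0051) was not called (limma adjusted p = 0.0909). It was called lower with the same total (-0.64, adjusted p = 0.0238), quantile normalization (-0.65, adjusted p = 0.0177) and the same median (-1.04, adjusted p = 0.0233), and turned to 0.056 with reference-gene scaling (adjusted p = 0.782). It was also called without labelled tumor-free 3 (-0.57, adjusted p = 0.0367), and without both that library and labelled tumor-bearing 1 (-0.72, adjusted p = 0.00694).

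**Figure D2:**
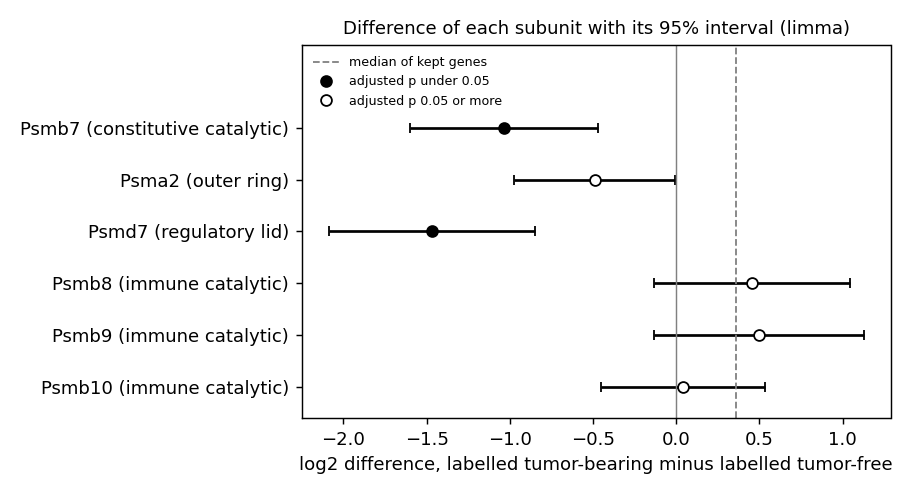
Log2 difference of each subunit, labelled tumor-bearing minus labelled tumor-free (horizontal axis), with its 95% interval from limma, filled where the adjusted p is under 0.05; the dashed line is the median of the 609 kept genes at 0.36. Psmb7 and Psmd7 lie left of 0 with their whole interval and are called, Psma2 ends at -0.0051 and is not called, and the intervals of Psmb8, Psmb9 and Psmb10 hold both 0 and the dashed line.

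Psmb8, the immune form of the chymotrypsin-like subunit, read 7434, 4859, 4504 and 4240.0 in the libraries labelled tumor-bearing 1 to 4, and 4743, 2882, 4891 and 2919 in those labelled tumor-free 1 to 4. The libraries labelled tumor-free formed a high pair, replicates 1 and 3, which lay among the libraries labelled tumor-bearing, and a low pair, replicates 2 and 4. Its means were 5259 ± 1472 and 3859 ± 1108 in the nodes labelled tumor-bearing and tumor-free (SD, n = 4 each), with a log2 difference of 0.46 (SE 0.26, 95% interval -0.13 to 1.04, limma adjusted p = 0.178). The difference was close to the median of all kept genes. With the same median it was -0.090 (adjusted p = 0.651), and with reference-gene scaling 1.00, where it was called (adjusted p = 0.0198). Under reference-gene scaling the median kept gene stood at 0.91, and 363 of the 609 kept genes were called higher.

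Psmb9, the immune form of the caspase-like subunit, followed Psmb8 from library to library. It read 1890.1, 1135, 1012 and 1056 in the libraries labelled tumor-bearing 1 to 4, and 1110.2, 633, 1164 and 706 in those labelled tumor-free 1 to 4. Again replicates 1 and 3 labelled tumor-free lay among the libraries labelled tumor-bearing, and replicates 2 and 4 below them all. The log2 difference was 0.50 (SE 0.28, 95% interval -0.13 to 1.13, limma adjusted p = 0.171). It was -0.048 with the same median (adjusted p = 0.833), and 1.04 with reference-gene scaling, where it was called (adjusted p = 0.0207). As for Psmb8, that call stands beside a median kept gene at 0.91 and 363 of 609 kept genes called higher.

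Psmb10, the immune counterpart of Psmb7, read 1004.5, 742, 735 and 668 in the libraries labelled tumor-bearing 1 to 4, against 978, 577, 807 and 716 in those labelled tumor-free 1 to 4. The groups lay over each other, with replicate 1 the highest of each. The means were 787 ± 148 and 769.6 ± 168 in the nodes labelled tumor-bearing and tumor-free (SD, n = 4 each), giving a difference of 0.042 on the log2 scale (SE 0.22, 95% interval -0.45 to 0.53, limma adjusted p = 0.872). Its sign depended on the scaling, at 0.59 with reference-gene scaling, -0.10 with the same total, -0.27 after quantile normalization and -0.50 with the same median, with no call under any of them. Without labelled tumor-bearing 1 the difference was -0.081, without labelled tumor-free 2 it was -0.088, and it was -0.050 with labelled tumor-free 3 and labelled tumor-bearing 1 both left out.

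**Figure D3:**
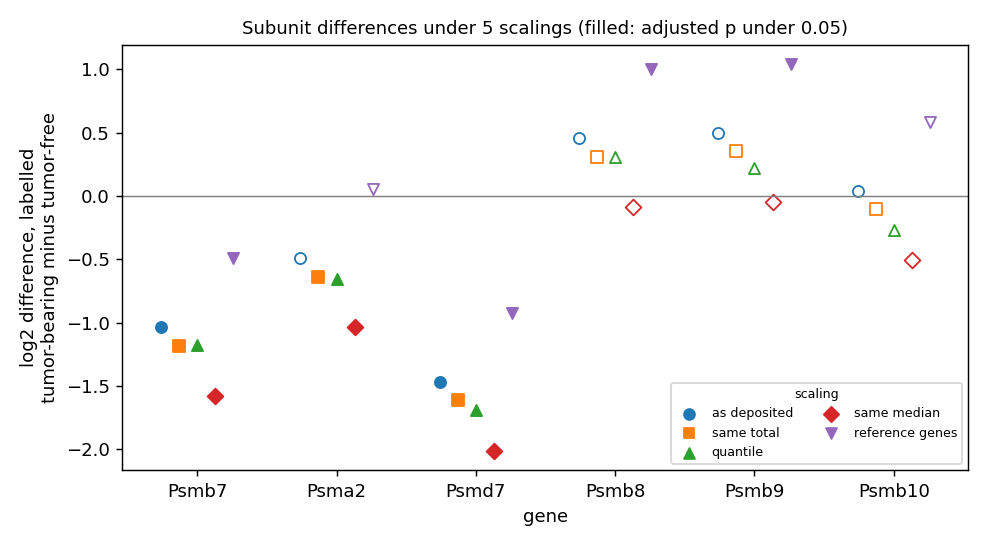
Log2 difference of each subunit, labelled tumor-bearing minus labelled tumor-free (vertical axis), in the deposited values and under 4 other scalings, filled where the limma adjusted p is under 0.05. Psmb7 and Psmd7 stay below 0 and filled under all 5, and the signs of the other 4 subunits depend on the scaling. The immune subunits lie above Psmb7 and Psmd7 in each. Only quantile normalization could change that order, because the other scalings divide all genes of a library by the same factor.

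Ratios of a pair of subunits within a library do not move with the 1 factor that scales that library. Psmb7 is the only constitutive catalytic subunit read here, so a ratio to it also moves when Psmb7 alone does. The probes differ, so only changes of a ratio between libraries are read, and no test is given. The log2 ratio of Psmb10 to Psmb7, the one substituting pair read here, was -0.78, -0.86, -0.82 and -0.93 in the libraries labelled tumor-bearing 1 to 4, and -1.68, -2.31, -1.18 and -2.52 in those labelled tumor-free 1 to 4. All 4 libraries labelled tumor-bearing lay above all 4 labelled tumor-free, and they varied little among themselves. The means were -0.85 ± 0.064 in the nodes labelled tumor-bearing and -1.92 ± 0.61 in those labelled tumor-free (SD, n = 4 each), a difference of 1.08, or 2.11-fold, and it ranged from 0.88 to 1.33 when each library was left out in turn. How that difference divides between the 2 genes depends on the scaling: Psmb10 and Psmb7 differed by 0.042 and -1.04 in the deposited values, by 0.59 and -0.49 with reference-gene scaling, and by -0.50 and -1.58 with the same median. In the deposited values Psmb7 stood at -1.40 relative to the median kept gene and Psmb10 at -0.32. The median kept gene thus rose more against Psmb7 than Psmb10 did.

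Other pairs were chosen after their values were seen. The log2 ratio of Psmb8 to Psmb7 was 2.11, 1.85, 1.80 and 1.74 in the libraries labelled tumor-bearing 1 to 4, and 0.60, 0.0078, 1.42 and -0.50 in those labelled tumor-free 1 to 4. The ratio of Psmb9 to Psmb7 was 0.13, -0.25, -0.35 and -0.27 in the libraries labelled tumor-bearing 1 to 4, and -1.50, -2.18, -0.65 and -2.55 in those labelled tumor-free 1 to 4. Both ratios had groups that did not overlap, and their mean differences were 1.49 and 1.53 on the log2 scale. Psmb7 itself stood at -1.40 relative to the median kept gene and above only 7.72% of kept genes, so most kept genes rose against it. Relative to the same median, Psmb8 stood at 0.094, Psmb9 at 0.14 and Psmb10 at -0.32. How many kept genes have groups apart in a ratio to Psmb7 was not counted. In all 3 ratios to Psmb7 the libraries labelled tumor-free stood in the same order, with replicate 4 lowest, then 2, then 1, and replicate 3 nearest to the nodes labelled tumor-bearing. Myc in the libraries labelled tumor-free had the opposite order, highest in replicate 4 and lowest in replicate 3. The T cell markers summed to 14685, 11008, 36360 and 6372 in the libraries labelled tumor-free 1 to 4, thus in the order of the ratios. The part of either in the ratios was not tested.

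**Figure D4:**
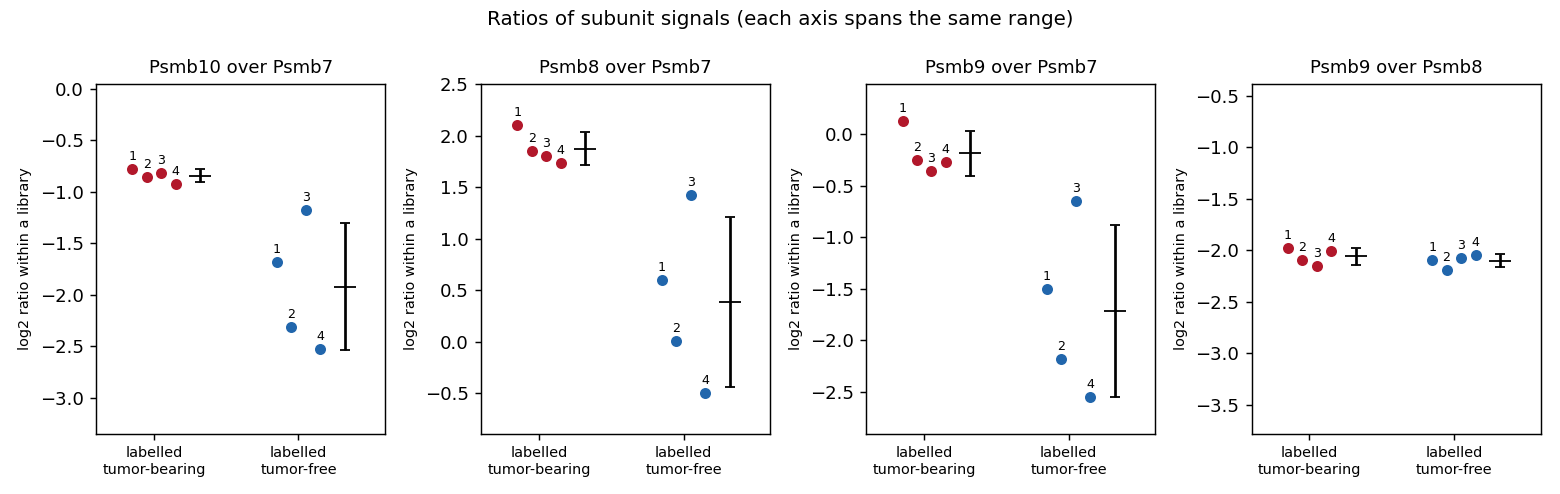
Log2 ratio of the signals of subunit pairs within each library (vertical axes, each spanning the same range), for libraries labelled tumor-bearing (left, red) and labelled tumor-free (right, blue), numbered by replicate, with the mean and SD of each group in black. The 3 ratios of immune subunits to Psmb7 are higher in all 4 libraries labelled tumor-bearing, while the ratio of Psmb9 to Psmb8 stays between -2.19 and -1.98 in all 8 libraries.

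Among themselves the subunits differed most between Psmb8 and Psmb9 on one side and Psmd7 on the other. The log2 ratio of Psmb9 to Psmb8 had an SD of 0.071 over the 8 libraries, the smallest of the 15 pairs, and its means were -2.06 ± 0.082 and -2.10 ± 0.061 in the nodes labelled tumor-bearing and tumor-free (SD, n = 4 each). The next closest pair was Psmb7 with Psmd7 (SD 0.24), and the farthest was Psmb9 with Psmd7 (SD 1.23). Psmb10 was nearer to Psmb8 (SD 0.28) than to Psmb7 (SD 0.70), yet its ratio to Psmb8 was lower in all 4 libraries labelled tumor-bearing, with no overlap, and had means of -2.72 ± 0.12 in the nodes labelled tumor-bearing and -2.30 ± 0.23 in those labelled tumor-free (SD, n = 4 each). The 2 groups were barely apart in that ratio, with labelled tumor-bearing 3 at -2.61 and labelled tumor-free 3 at -2.60. Psmd7 and Psma2 also moved against Psmb7: the mean log2 ratio of Psmd7 to Psmb7 was -0.77 ± 0.042 and -0.34 ± 0.12, and that of Psma2 to Psmb7 1.21 ± 0.11 and 0.67 ± 0.28, in the nodes labelled tumor-bearing and tumor-free (SD, n = 4 each). In these 2 ratios, also chosen after their values were seen, the groups did not overlap. For Psma2 to Psmb7 they were barely apart, with labelled tumor-bearing 4 at 1.09 and labelled tumor-free 3 at 1.07. How many kept genes are apart in such a ratio was not counted.

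For each subunit, the kept genes with the most similar profile were found by the root mean square difference of log2 values over the 8 libraries, after each gene's mean was taken off. The nearest gene to Psmb8 was Psmb9 and the reverse (0.066 log2 units, against a median of 0.47 from Psmb8 to all kept genes). After it came H2-Dma (0.094), a chain of the MHC class II peptide exchanger, and H2-Eb1 (0.099), an MHC class II chain, for Psmb8, and H2-Dma (0.11) was also among the nearest to Psmb9. Psmb10 was nearest to the signalling adaptor Myd88 (0.13), the caspase Casp8 and the cathepsin Ctss (0.14 each). Psmb7 was nearest to Hprt, an enzyme of purine salvage (0.070), then to Nup107, a nuclear pore protein, and Smn1, a protein of splicing-particle assembly (0.092 and 0.10). Psmd7 was nearest to Anp32b (0.070), then to the translation factor Eef1g and the RNA polymerase I subunit Polr1b (0.090 and 0.093). Psma2 was nearest to the kinases Lyn and Map2k2 and to Oaz1 (0.091, 0.092 and 0.092), the inhibitor of polyamine synthesis. All 6 named neighbours of Psmb7 and Psmd7 were themselves called lower. This follows from the choice, since the profiles compared include the difference between the groups, and it is no separate result. Hprt, Eef1g, Polr1b and Oaz1 are reference genes of the panel.

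**Figure D5:**
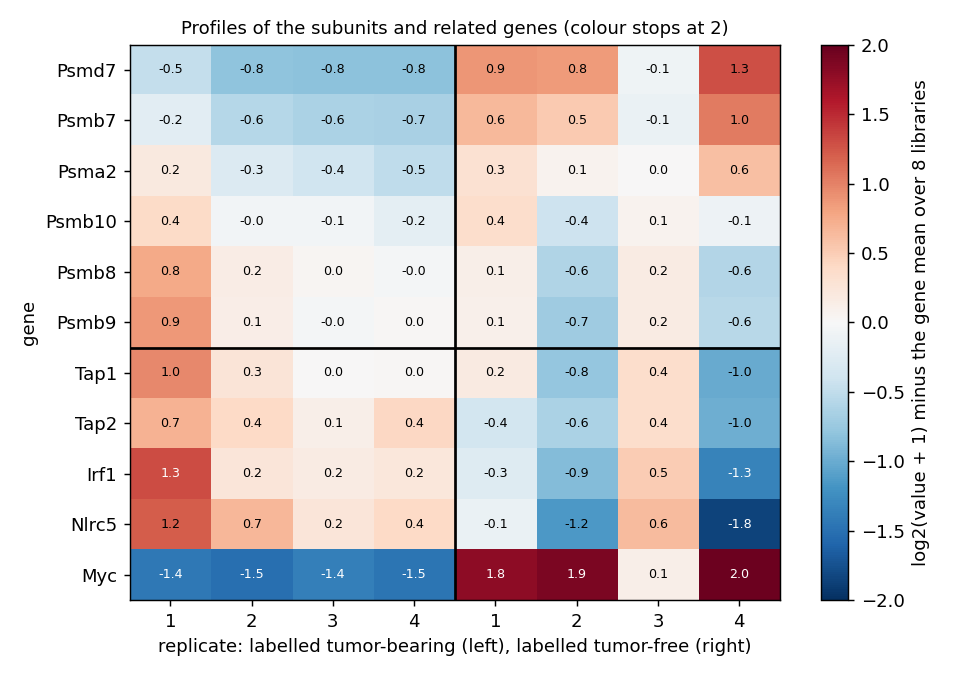
Log2(value + 1) minus the gene's mean over the 8 libraries (colour and printed value), for the 6 subunits (top block) and for Tap1, Tap2, Irf1, Nlrc5 and Myc (bottom block), in replicates 1 to 4 labelled tumor-bearing (left) and labelled tumor-free (right). Psmb8, Psmb9 and Tap1 are high in labelled tumor-bearing 1 and low in labelled tumor-free 2 and 4, and Psmd7 and Psmb7 are high in labelled tumor-free 1, 2 and 4 together with Myc.

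The transporter subunit Tap1, the divergent neighbour of Psmb9, kept close to it, with a mean log2 ratio of 1.52 ± 0.060 and 1.39 ± 0.28 in the nodes labelled tumor-bearing and tumor-free (SD, n = 4 each) and overlapping groups. Tap1 averaged 3675 ± 1271 and 2478 ± 1107 in the same groups, differing by 0.63 on the log2 scale (SE 0.35, limma adjusted p = 0.163). Its partner Tap2 averaged 341 ± 55.8 in the nodes labelled tumor-bearing and 203 ± 85.9 in those labelled tumor-free, a log2 difference of 0.82 (SE 0.30, adjusted p = 0.0537). Of the class I antigen processing list, which holds these genes, 7 of 12 genes were measured and kept, and limma called 0 higher and 0 lower, with 4 higher and 0 lower at an unadjusted p under 0.05 (39.1% and 14.9% of kept genes). The list's median log2 difference was 0.72, beside 0.36 over all kept genes. With reference-gene scaling 6 were called higher, with quantile normalization and the same total 2 each, and with the same median 0. Over all 609 kept genes these scalings called 363, 178, 187 and 115 higher, in that order. Without labelled tumor-free 3, 5 of the list were called higher, where 264 of the 609 were. Without both that library and labelled tumor-bearing 1 it was 4, where 238 of the 609 were, and without any other single library 0.

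The regulators Irf1 and Nlrc5 had coefficients of variation from 31.5% to 44.3% in the libraries labelled tumor-bearing and from 56.6% to 71.2% in those labelled tumor-free, where the 6 subunits had 12.3% to 32.5% and 19.5% to 35.2% in the same groups. Irf1, an interferon-induced transcription factor, averaged 3472 ± 1539 in the nodes labelled tumor-bearing and 1868 ± 1057 in those labelled tumor-free (a difference of 0.97 on the log2 scale, SE 0.41, adjusted p = 0.0779). Nlrc5, the activator of MHC class I genes, averaged 2086 ± 656 in the nodes labelled tumor-bearing and 1040.1 ± 740.4 in those labelled tumor-free (a difference of 1.25 on the log2 scale, SE 0.48, adjusted p = 0.0613; SD, n = 4 each). Interferon gamma itself, Ifng, lay below the filter, at 64.6, 14.3, 12.1 and 14.1 in the libraries labelled tumor-bearing 1 to 4, and 14.4, 9.86, 21.4 and 6.64 in those labelled tumor-free 1 to 4. Its highest value was thus in labelled tumor-bearing 1, the library with the largest total signal. That library was also highest for Psmb8, Psmb9, Psmb10, Tap1, Tap2, Irf1 and Nlrc5, but not for Psmb7, Psma2, Psmd7 or Myc. A link of Ifng to these genes was not tested.

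Of the interferon gamma signalling list, 10 of 11 genes were measured and 9 kept, of which limma called 3 higher and 0 lower, where 27.6% of kept genes were called higher, so the share is near that of all kept genes. The list's median log2 difference was 0.68, beside 0.36 over all kept genes. The 3 were the kinases Jak1 (0.98, adjusted p = 0.0286) and Jak2 (0.73, adjusted p = 0.0288) and the MHC class II activator Ciita (0.80, adjusted p = 0.0443). The count was 7 with reference-gene scaling, 2 after quantile normalization, 3 with the same total and 0 with the same median. Over all 609 kept genes these scalings called 363, 178, 187 and 115 higher, in that order. The list's count was 5 without labelled tumor-free 3 (264 of the 609) and 0 without any other single library. It was 5 without both labelled tumor-free 3 and tumor-bearing 1 (238 of the 609). Of the type I interferon response list, 17 of 19 genes were kept, with 0 called in either direction by limma, 0 higher and 3 lower at an unadjusted p under 0.05 (39.1% and 14.9% of kept genes), and a median log2 difference of -0.79. The share lower is thus near that of all kept genes. The median was negative under all 4 other scalings, and 11 genes of the list were called lower with the same median, 8 with quantile normalization, 3 with the same total and 0 with reference-gene scaling. Over all 609 kept genes these scalings called 151, 118, 109 and 38 lower, in that order. The number of the list called lower was 6 with the replicate number as a block (65 of the 609) and 4 without labelled tumor-free 4 (52 of the 609). It was 0 without any other single library, and 4 with labelled tumor-free 3 and labelled tumor-bearing 1 both left out (114 of the 609). The median was -0.31 without labelled tumor-free 1 and ran from -1.21 to -0.54 without each other library.

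The panel's reference genes, several of them near Psmb7 and Psmd7 in profile, had 8 of 20 called lower and 0 higher, where 10.7% and 27.6% of kept genes were, with a median log2 difference of -0.51. The largest were Polr1b (-1.37), Eef1g (-1.30), the lysosomal enzyme Gusb (-1.18) and Hprt (-0.91). The number called lower was 14 with the same median, 13 with quantile normalization, 13 with the same total, and 3 with reference-gene scaling, where 2 were higher and the median was 0.037. Over all 609 kept genes these scalings called 151, 118, 109 and 38 lower, in that order. The number of reference genes called lower was 14 without both labelled tumor-free 3 and labelled tumor-bearing 1, 12 without labelled tumor-free 3, 6 without labelled tumor-free 4, 5 without labelled tumor-bearing 1 and 0 without any other single library. Of the growth and division list, 6 of 9 genes were kept and 5 called lower, with a median of -2.27: Birc5, which blocks apoptosis and is made during division (-3.34), Myc, the cytokine Mif (-2.28), the mitochondrial protein C1qbp (-2.27) and the transferrin receptor Tfrc (-2.24), the last of them named after its value was seen. The number lower was 5 under all 4 other scalings, 2 without labelled tumor-free 2 or labelled tumor-bearing 4, 0 without labelled tumor-bearing 3, and 4 or 5 without each of the other 5 libraries. Psmb7 and Psmd7 differed in the same direction by smaller amounts.

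Markers of cell types also differed between the groups, and in tissue RNA fewer cells of a type and less RNA per cell cannot be told apart. The counts of markers called are to be read against the 27.6% of kept genes called higher and the 10.7% called lower. All 10 T cell markers were called higher, and their summed signal ran from 40747 to 47870 in the libraries labelled tumor-bearing, against 6372 to 36360 in those labelled tumor-free. Of 7 kept macrophage markers 5 were called lower, and the 8 measured ones summed to between 616 and 973 in the libraries labelled tumor-bearing, against 1440.5 to 1606.5 in those labelled tumor-free. The 9 B cell markers, the type this tumor belongs to, summed to between 15424 and 27401 in the libraries labelled tumor-bearing, against 17557 to 21726 in those labelled tumor-free, with Cr2 and Blk called higher and Blnk lower, shares near those of all kept genes. Of 5 kept dendritic cell markers 3 were called higher (Ccr7, Cd83 and Xcr1), with sums from 6031 to 8164 in the libraries labelled tumor-bearing, against 2519 to 6039 in those labelled tumor-free. Ccr7 and Cd83 held most of these sums, with means of 4807 and 1700 in the libraries labelled tumor-bearing. Itgax (0.56, limma adjusted p = 0.0913) and Flt3 (0.61, limma adjusted p = 0.0663) were not called. Of 5 NK cell markers 1 was called higher (Klrd1), a smaller share than over all kept genes. At a limma unadjusted p under 0.05, however, 4 were higher, where 39.1% of kept genes were. The median log2 difference of the NK cell markers was 1.07, beside 0.36 over all kept genes. Their sums ran from 3335 to 6349 in the libraries labelled tumor-bearing, against 699 to 3597 in those labelled tumor-free. The macrophage markers called were Fcgr1, Marco, Msr1, Emr1 and Csf1r, and the marker genes named here were chosen after their values were seen. Without labelled tumor-bearing 3, limma called 0 genes of these 5 marker lists, and over all 8 fits without 1 library the T cell calls ran from 0 to 10 and the macrophage calls from 0 to 5. No measured marker read 0 in any library. The part of these cell types in the subunit differences was not tested.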

How the data were processed

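The authors deposited a normalized count signal (linear, 2 decimals); its software, scaling genes and any background correction are not stated in the labels. Values of each library lay within 0.1 of whole multiples of 1 step (0.822 to 1.29), which gives the step counts printed as depth; they cover counting error only. The labels' protocols give spin-column extraction with DNase treatment.

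Genes at 20 or more in at least 4 of 8 libraries (609 of 770) entered a limma fit (version 3.58.1, R 4.3.3) of log2(value + 1) on group alone, moderated by eBayes with a trend and tested two-sided, with Benjamini-Hochberg adjustment over all 609 and a threshold of 0.05. Fold changes on this scale understate changes of low genes. The fit was tested on simulated data. Figures and summaries used Python 3.11.15.

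Subunits, lists and the rule for named genes were chosen with earlier results of these data known. Named were all subunits, Tap1, Tap2, Irf1, Nlrc5, Ifng, Myc, up to 4 called genes with the largest change per pathway list, and the 3 nearest profiles per subunit, except genes that are not reported here. Promoter sequences came from RefSeq (GRCm38.p6). Replicate numbers did not pair the libraries (correlation of same-numbered deviations 0.55, 0.028, 0.014 and -0.037 for numbers 1 to 4).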

Additional observations from a re-analysis of the deposited data

Results flagged for a closer look

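A library was looked at again where its gap to the nearest of its group exceeded, as a share of the group's range in log2 signal or log2 ratio, Dixon's 95% critical value for 4 samples, which chance passes in about 1 group in 20. Of 40 groups, 4 did so. Psmd7 in labelled tumor-bearing 1 (975) had a gap of 0.929 of the range. In the same library Irf1 (5777.5) had 0.925 and Ifng (64.6) 0.903. Myc in labelled tumor-free 3 (9249.5) had 0.906.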

How the results depend on the processing

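Psmb7 and Psmd7 were lower under every alternative run, and lost their call only in 5 and 4 of the 8 fits that left out 1 library. Over those fits the differences ran from -1.25 to -0.86 for Psmb7, -1.74 to -1.28 for Psmd7, -0.64 to -0.37 for Psma2, 0.28 to 0.58 for Psmb8, 0.29 to 0.64 for Psmb9 and -0.088 to 0.17 for Psmb10 (-0.081 without labelled tumor-bearing 1). The Psmb10 to Psmb7 ratio moved from 0.88 to 1.33. Genes called higher numbered 0 to 264 and lower 0 to 93, where limma called 0 of either without labelled tumor-bearing 3 (220 and 66 at an unadjusted p under 0.05) and 0 higher without labelled tumor-free 2 (165 unadjusted). Reference-gene scaling gave 363 higher and 38 lower, with Psmb8 at 1.00 and Psmb9 at 1.04 called and Psma2 at 0.056. The same median gave 151 lower (with 115 higher), Psmb8 at -0.090, Psmb9 at -0.048, Psmb10 at -0.50 and Psma2 at -1.04, called. Quantile normalization gave 118 lower, Psmb10 at -0.27 and Psma2 at -0.65, called, and the same total 109 lower, Psmb10 at -0.10 and Psma2 at -0.64, called. Of the calls 72.1% were higher in the deposited values, 90.5%, 43.2%, 60.1% and 63.2% in these 4. With labelled tumor-free 3 and labelled tumor-bearing 1 both left out, 114 were lower, Psmb10 stood at -0.050 and Psma2 at -0.72, called. The cause was not tested. A pseudocount of 10, filters at 0 and 100, no trend and a replicate block changed no subunit's call or sign; with the block the differences were those without it (Psmb7 -1.04, limma adjusted p = 0.0109) and 173 genes were higher and 65 lower. The count tests edgeR and DESeq2, planned for the case that whole counts could be recovered, were not run: the whole multiples found in all 8 libraries served only to give the depth.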
